A study of Saccharomyces cerevisiae with 8 samples.

Results

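The 10 genes described here encode enzymes that make, interconvert and use citrate and malate in budding yeast: the citrate synthases CIT1, CIT2 and CIT3, the aconitase ACO1, the malate dehydrogenases MDH1, MDH2 and MDH3, the glyoxylate cycle enzymes ICL1 and MLS1, and FBP1 of gluconeogenesis. They were found by gene name among 5171 open-reading-frame transcripts (ORF-Ts, coding units with their mapped transcript ends) of 7272 features in all, and each of the 10 names stood on 1 ORF-T. Nascent RNA still held by RNA polymerase II was measured by NET-seq (native elongating transcript sequencing) in 8 libraries from cells growing at mid-log phase in YPD, a rich glucose medium. There were 2 biological replicates per group: cac1 (strain YSB3062, cac1Δ), cac2 (YSB3063, cac2Δ), cac3 (YSB3064, cac3Δ) and wild type (YSC0001). All 4 strains carried Rpb3-FLAG, the tagged polymerase subunit used for purification. Each genotype was 1 strain. The wild-type name does not belong to the run of names used for the mutants. Effects of strain background and of the deleted gene therefore cannot be told apart where a mutant is set against wild type. The same holds where 1 mutant is set against another, since each deletion was carried by 1 strain. The deleted genes encode the 3 subunits of CAF-I, a chaperone that places histones on DNA behind the replication fork.

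In yeast, citrate synthase, aconitase and malate dehydrogenase exist as isoenzymes with separate addresses. Cit1, Cit3, Aco1 and Mdh1 work in mitochondria, Cit2 and Mdh3 in peroxisomes, and Mdh2 in the cytosol. The glyoxylate cycle, through isocitrate lyase (Icl1) and malate synthase (Mls1), lets cells build sugar from acetate or ethanol, and Fbp1 (fructose-1,6-bisphosphatase) catalyses a late step of that route. Genes of the glyoxylate cycle and gluconeogenesis are known to be repressed in glucose.

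Between 1880299 and 7705151 reads fell on features per library. Levels are given as RPKM, a read density per kilobase of feature that allows for library size. Changes are log2 differences, mutant minus wild type, from an edgeR quasi-likelihood fit, given with a standard error (SE). The verbs "rose" and "fell" mark an adjusted p below 0.05. With 2 libraries a group, p-values rest on a spread shared over all 8 libraries and measure the spread between these libraries. The deleted gene's own feature was lower in each mutant: RLF2, the gene for Cac1, averaged 13.8 ± 0.396 RPKM in cac1 and 38.2 ± 1.03 in wild type, CAC2 19.9 ± 0.474 in cac2 and 60.96 ± 5.63 in wild type, and MSI1, the gene for Cac3, 32.2 ± 3.16 in cac3 and 71.9 ± 1.92 in wild type (SD, n = 2 each). The extent of each deletion within its feature is not stated in the sources used here.

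The genes covered a wide range of levels, and their order was nearly the same in every strain. In wild type MDH2 had the highest density at 489 ± 4.67 RPKM, followed by ACO1 at 143 ± 4.57 (SD, n = 2). MDH1 (88.2 ± 19.8), CIT2 (79.9 ± 2.72), MDH3 (74.99 ± 0.237) and CIT1 (59.2 ± 1.09) followed. The MDH1 libraries overlapped those of CIT2, its neighbour in that order, and all other neighbours were apart. ICL1 stood at 25.6 ± 3.55 RPKM, and CIT3 (5.61 ± 0.50), MLS1 (3.38 ± 2.11) and FBP1 (1.53 ± 0.231) came last. In cac1 the order of the means was that of wild type, with MDH1 overlapping ACO1 above it and CIT2 below it. In cac2 and in cac3 CIT2 and MDH1 changed places, and MDH1 overlapped both CIT2 and MDH3. FBP1 thus rests on few reads, with 11 and 19 in cac1, 11 and 16 in cac2, 31 and 24 in cac3, and 3 and 15 in wild type.

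**Figure D1:**
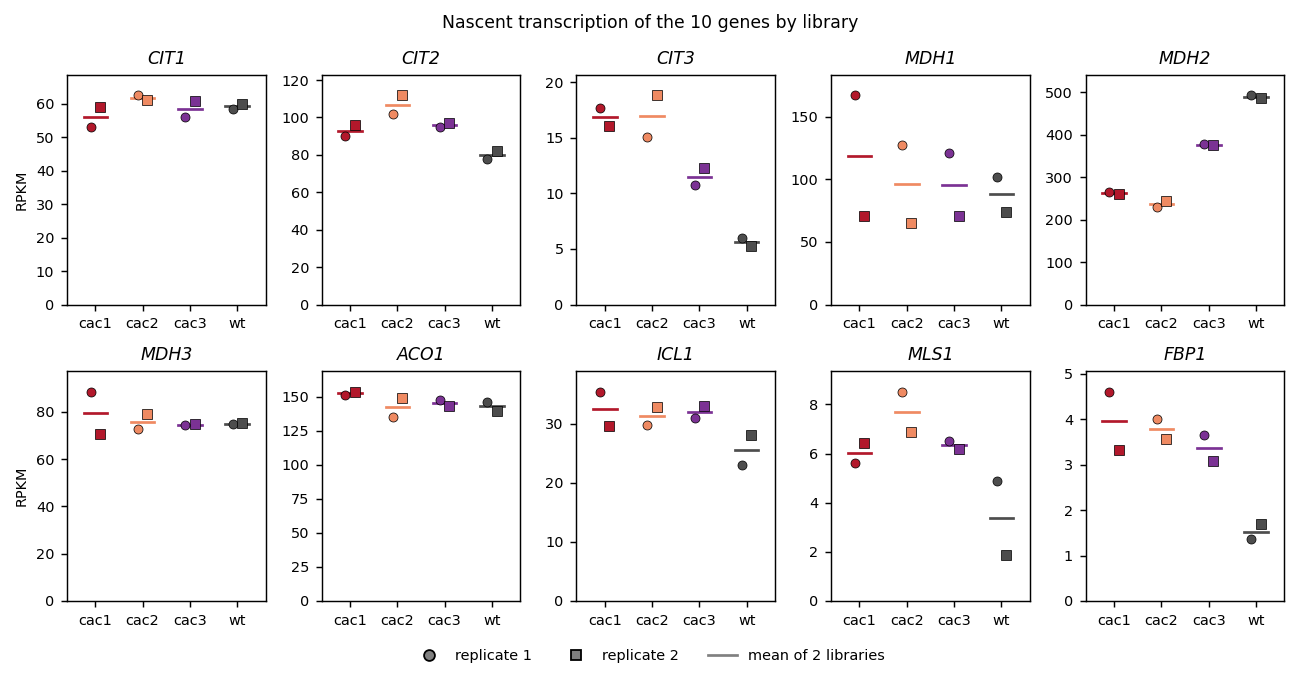
Level of each of the 10 genes in every library, in RPKM on a linear axis from 0 with a scale of its own for each gene, with circles for replicate 1, squares for replicate 2 and a bar at the mean of 2. MDH2 is lower in all mutant libraries than in wild type, CIT2, CIT3, ICL1, MLS1 and FBP1 are higher in all of them, and MDH1 is higher in replicate 1 than in replicate 2 of every group.

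Averaged over the 3 mutants, 4 of the 10 genes rose (CIT2, CIT3, MLS1 and FBP1) and 1 fell (MDH2), while 11.9% of all features tested rose and 8.86% fell. In cac1, CIT3, MLS1 and FBP1 rose and MDH2 fell (3 and 1 of 10; all features 10.8% and 8.38%). In cac2, CIT2, CIT3 and MLS1 rose and MDH2 fell (3 and 1 of 10; all features 9.57% and 5.94%). In cac3, CIT3 and MLS1 rose and MDH2 fell (2 and 1 of 10; all features 3.7% and 2.38%). The median log2 change of the 10 genes was 0.25 for the mean of the mutants, beside 0.01 over all features. The 3 mutants were compared with the same 2 wild-type libraries, so their changes are not independent of each other.

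CIT3, MLS1 and FBP1 had mean levels below 20 RPKM, and 43.9% of the 394 ORF-Ts below that level rose in the mean of the mutants, 43.4% in cac1, 35.5% in cac2 and 19.3% in cac3. All 6 mutant libraries were above both wild-type libraries for 5 of the 10 genes (17.4% of all features) and below both for 1 (14.7% of all features). Without scaling beyond library totals the split of all features in the mean of the mutants was 1219 higher and 388 lower, against 865 and 644 with scaling, and the median log2 change moved by 0.06. There 5 of the 10 genes rose and 1 fell in the mean of the mutants, ICL1 being added (adjusted p = 0.0308), CIT2 also passed in cac1 (0.0215) and cac3 (0.0425), and FBP1 passed in cac2 (0.0467).

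**Figure D2:**
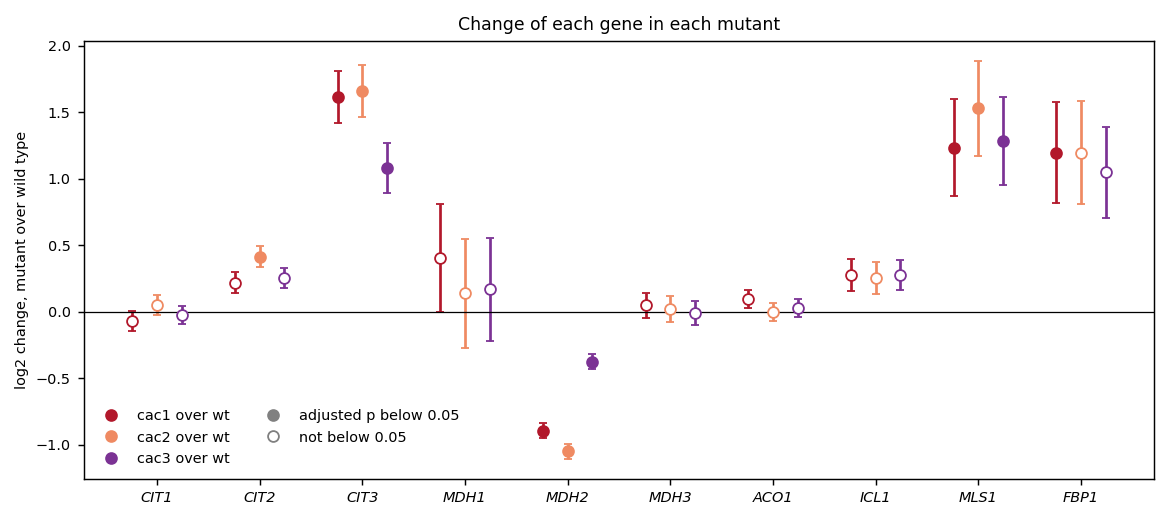
Log2 change from wild type of each gene in cac1, cac2 and cac3, from the edgeR fit of all 8 libraries, with error bars of 1 SE and filled points where the adjusted p is below 0.05. MDH2 is filled and below 0 in all 3 mutants, nearest to 0 in cac3, CIT3 and MLS1 are filled and above 0 in all 3, and MDH1, MLS1 and FBP1 have the widest error bars.

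Among the malate dehydrogenases, MDH2 fell and its isoenzymes did not pass the test. MDH2 (YOL126C, chromosome XV, 81622 to 83006, minus strand; the sources used here do not state the genome build) encodes the cytosolic enzyme used in gluconeogenesis. Its level was 265 and 261 RPKM in cac1, 229 and 243 in cac2, 378 and 375 in cac3, and 492 and 485 in wild type. The groups did not overlap, and cac3 lay between the other two mutants and wild type. The log2 change was -0.89 in cac1 (SE 0.06, edgeR adjusted p = 1.22e-05), -1.05 in cac2 (SE 0.06, adjusted p = 3.69e-06) and -0.38 in cac3 (SE 0.06, adjusted p = 0.00339). Without wild-type replicate 2 the change in cac3 was -0.39 with an adjusted p of 0.0736, while the calls in cac1 and cac2 passed in every fit that left out 1 library. Among the 1403 ORF-Ts with a mean level of at least 100 RPKM, MDH2 had the third lowest change in cac1 and in cac2 and ranked 29 from the lowest in cac3, a description chosen after its values were seen.

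The depth of the fall differed between the mutants. MDH2 was lower in cac1 than in cac3 by a log2 difference of -0.52 (SE 0.06, edgeR adjusted p = 0.00122), and lower in cac2 than in cac3 by -0.67 (SE 0.06, adjusted p = 0.000141). It was the 1 gene of the 10 called in either comparison, where 0.688% and 0.261% of all features were called lower. Between cac1 and cac2 none of the 10 genes was called by edgeR (0.055% of all features in either direction) or by DESeq2, and 2 of the 10, MDH2 and CIT2, had an unadjusted p below 0.05 in edgeR. There MDH2 differed by 0.15 (SE 0.06, adjusted p = 0.504) and CIT2 by -0.20 (SE 0.08, adjusted p = 0.525).

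MDH1 (YKL085W, chromosome XI, 278643 to 280019, plus strand), the mitochondrial enzyme of the citric acid cycle, varied more between replicates than between strains. Its level was 167 and 70.3 RPKM in cac1, 127 and 65.2 in cac2, 121 and 70.8 in cac3, and 102 and 74.1 in wild type. Replicate 1 was the higher library in all 4 groups, by 2.37-fold in cac1, 1.95-fold in cac2, 1.70-fold in cac3 and 1.38-fold in wild type. Averaged over the groups MDH1 ranked 36 of 7155 features by how far replicate 1 exceeded replicate 2, and 20.6% of features had the same sign in all 4 groups. The mean change in the mutants was 0.24 (SE 0.33, 95% interval -0.50 to 0.97, edgeR adjusted p = 0.66). Within replicate number 1 the mean difference was 0.42, and within replicate number 2 it was -0.11.

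MDH3 (YDL078C, chromosome IV, 315205 to 316453, minus strand), the peroxisomal enzyme that reoxidises NADH from fatty acid oxidation, stood at 88.4 and 70.7 RPKM in cac1, 72.7 and 78.9 in cac2, 74.3 and 74.8 in cac3, and 74.8 and 75.2 in wild type. The groups overlapped, and the mean change of 0.02 (SE 0.08) had a 95% interval of -0.15 to 0.19. Summed over the 3 genes, malate dehydrogenase density averaged 461 ± 83.9 RPKM in cac1, 408 ± 29.6 in cac2, 546 ± 36.8 in cac3 and 652 ± 24.3 in wild type (SD, n = 2 each). MDH2 made up 57.9% ± 9.87 of that sum in cac1, 58.1% ± 6.66 in cac2, 68.98% ± 4.29 in cac3 and 75.01% ± 2.08 in wild type. The share of MDH1 ran from 13.6% to 32.1% among mutant libraries and was 15.3% and 11.7% in wild type.

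The citrate synthases went another way: CIT3 and CIT2 rose and CIT1 did not pass the test. CIT3 (YPR001W, chromosome XVI, 556339 to 557979, plus strand), a minor mitochondrial citrate and methylcitrate synthase, stood at 17.7 and 16.02 RPKM in cac1, 15.1 and 18.8 in cac2, 10.8 and 12.3 in cac3, and 5.96 and 5.25 in wild type. All mutant libraries were above wild type, and both cac3 libraries were below all those of cac1 and cac2. The log2 change was 1.61 in cac1 (SE 0.20, edgeR adjusted p = 0.000534), 1.66 in cac2 (SE 0.20, adjusted p = 0.000472) and 1.08 in cac3 (SE 0.19, adjusted p = 0.00829). The difference between cac1 and cac3 was 0.53 (SE 0.16, adjusted p = 0.148) and between cac2 and cac3 0.58 (SE 0.16, adjusted p = 0.235), so neither passed. Pooled over libraries, 614 mutant and 82 wild-type reads gave a ratio of 2.62 with an exact 95% interval of 2.08 to 3.34 for counting error alone. The call in cac3 was lost without cac3 replicate 2 (adjusted p = 0.0634) and without wild-type replicate 2 (0.255).

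CIT2 (YCR005C, chromosome III, 120846 to 122398, minus strand), the peroxisomal citrate synthase of the glyoxylate cycle and a known target of retrograde signalling from mitochondria, stood at 90.1 and 95.9 RPKM in cac1, 102 and 112 in cac2, 94.8 and 97.1 in cac3, and 78.01 and 81.9 in wild type. No mutant library overlapped wild type. The mean change was 0.30 (SE 0.06, edgeR adjusted p = 0.00921). Among single mutants the change passed in cac2 (0.42, SE 0.08, adjusted p = 0.00578), and was 0.22 in cac1 (adjusted p = 0.0744) and 0.26 in cac3 (adjusted p = 0.0718). The mean change lost its call without wild-type replicate 1 (adjusted p = 0.0772) or replicate 2 (0.0965), with values of 0.27 and 0.33, and the change in cac2 lost it without wild-type replicate 2 (0.0545).

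CIT1 (YNR001C, chromosome XIV, 629464 to 631248, minus strand), the main mitochondrial citrate synthase, had 53.2 and 59.04 RPKM in cac1, 62.5 and 60.99 in cac2, 56.2 and 60.8 in cac3, and 58.4 and 59.97 in wild type. The mutant libraries lay on both sides of wild type, and the mean change was -0.01 (SE 0.06, 95% interval -0.14 to 0.12). Citrate synthase density summed to 166 ± 7.16 RPKM in cac1, 185 ± 8.67 in cac2, 166 ± 5.98 in cac3 and 145 ± 3.31 in wild type (SD, n = 2 each). CIT1 made up 33.8% ± 1.04 of it in cac1, 33.3% ± 2.13 in cac2, 35.2% ± 0.694 in cac3 and 40.9% ± 0.183 in wild type. CIT3 made up 10.2% ± 1.13 in cac1, 9.12% ± 1.00 in cac2, 6.94% ± 0.389 in cac3 and 3.88% ± 0.434 in wild type.

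ACO1 (YLR304C, chromosome XII, 734997 to 737597, minus strand) encodes the aconitase that turns citrate into isocitrate. Its level was 151 and 153 RPKM in cac1, 135 and 149 in cac2, 148 and 143 in cac3, and 146 and 139 in wild type. The groups overlapped, and the mean change was 0.04 (SE 0.05, 95% interval -0.08 to 0.16).

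The ratios between isoenzymes were compared within libraries, where scaling between libraries enters only through the 1 RPKM added to each level. Over 6 pairs the exact two-sided permutation test of 6 mutant against 2 wild-type libraries has 28 splits and a smallest possible p of 0.0357, which is 0.0536 once adjusted over the 6 pairs as found here. The test exchanges single libraries, though the mutant libraries come from different strains with 2 libraries each. Its p therefore does not measure the spread between strains. The log2 ratio of CIT3 over CIT1 averaged -1.68 ± 0.20 in cac1, -1.81 ± 0.24 in cac2, -2.25 ± 0.04 in cac3 and -3.19 ± 0.14 in wild type (SD, n = 2 each), and the mutants exceeded wild type by 1.28 (exact p = 0.0357). CIT2 over CIT1 averaged 0.72 ± 0.04 in cac1, 0.78 ± 0.12 in cac2, 0.71 ± 0.05 in cac3 and 0.43 ± 0.02 in wild type, a difference of 0.31 (exact p = 0.0357). CIT3 over CIT2 differed by 0.97 (exact p = 0.0357). For these 3 pairs no mutant library overlapped wild type, and none passed after adjustment. The log2 ratio of CIT3 over CIT2 is the difference of the other 2, so the 3 pairs are not separate observations. Over single features, all 6 mutant libraries were above both wild-type libraries for 17.4% and below both for 14.7%. The share of gene pairs without overlap was not computed, for these pairs or for those of the malate dehydrogenases. With 0.1 RPKM added in place of 1, CIT3 over CIT1 differed by 1.40 and CIT3 over CIT2 by 1.09.

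For the malate dehydrogenases, MDH3 over MDH2 averaged -1.72 ± 0.21 in cac1, -1.63 ± 0.02 in cac2, -2.32 ± 0.02 in cac3 and -2.69 ± 0.02 in wild type (SD, n = 2 each). The mutants exceeded wild type by 0.80 (exact p = 0.0357, adjusted p = 0.0536) without overlap. MDH2 over MDH1 differed by -0.93 (exact p = 0.107, adjusted p = 0.129) and MDH3 over MDH1 by -0.13 (exact p = 0.679). The libraries overlapped in both pairs with MDH1, where replicate 1 gave the lower ratio in each group. Among the replicate 1 libraries MDH2 over MDH1 was 0.66 in cac1, 0.84 in cac2, 1.64 in cac3 and 2.26 in wild type, and among the replicate 2 libraries 1.88 in cac1, 1.88 in cac2, 2.39 in cac3 and 2.69 in wild type, so each mutant library lay below the wild-type library of its number.

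**Figure D3:**
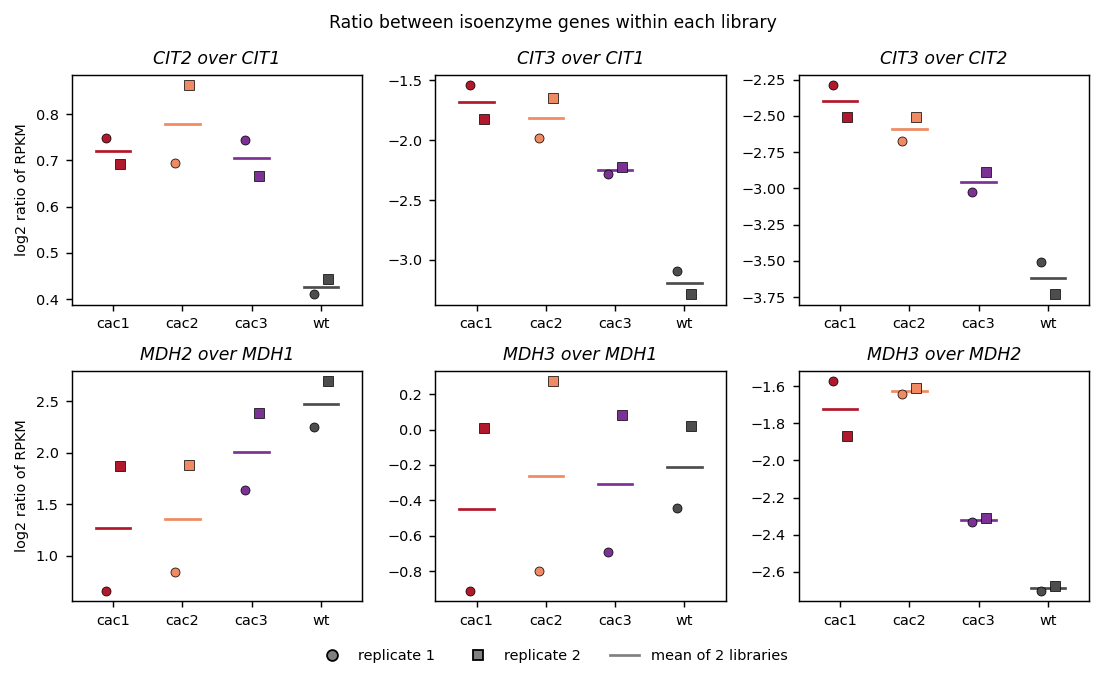
Log2 ratio of RPKM between isoenzymes in each library for 6 pairs, with circles for replicate 1, squares for replicate 2 and a bar at the mean of 2. Wild type lies apart from all mutant libraries in the 3 citrate synthase pairs and in MDH3 over MDH2, and the pairs with MDH1 spread by replicate.

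Of the glyoxylate cycle enzymes, MLS1 rose and ICL1 did not pass the test. MLS1 (YNL117W, chromosome XIV, 406307 to 408091, plus strand), malate synthase, which joins glyoxylate and acetyl-CoA, had 5.60 and 6.43 RPKM in cac1, 8.51 and 6.86 in cac2, 6.52 and 6.20 in cac3, and 4.87 and 1.89 in wild type. The mutant libraries were above both wild-type libraries, which differed from each other by 2.58-fold on 16 and 25 reads. The log2 change was 1.23 in cac1 (SE 0.36, edgeR adjusted p = 0.0384), 1.53 in cac2 (SE 0.36, adjusted p = 0.0169) and 1.29 in cac3 (SE 0.33, adjusted p = 0.0465). The mean change of 1.35 (SE 0.30, adjusted p = 0.0106) became 0.45 without wild-type replicate 2 (adjusted p = 0.503) and 1.81 without wild-type replicate 1. Leaving out any 1 of the 6 mutant libraries also ended the call in at least 1 single mutant, and DESeq2 ended it in cac1 (adjusted p = 0.138) and cac3 (0.193).

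ICL1 (YER065C, chromosome V, 285101 to 287245, minus strand), isocitrate lyase, which splits isocitrate into succinate and glyoxylate, had 35.4 and 29.7 RPKM in cac1, 29.7 and 32.9 in cac2, 30.9 and 33.03 in cac3, and 23.04 and 28.1 in wild type. No mutant library overlapped wild type. The mean change of 0.27 (SE 0.10, 95% interval 0.05 to 0.48) had an adjusted p of 0.074 by edgeR over all features, and of 0.0415 without cac1 replicate 2. Without wild-type replicate 1 the change was 0.18 (adjusted p = 0.293), and without wild-type replicate 2 it was 0.46 (adjusted p = 0.139). The 3 single changes lay between 0.26 and 0.28, with adjusted p from 0.138 to 0.180.

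FBP1 (YLR377C, chromosome XII, 873635 to 874827, minus strand) was the lowest of the 10 genes, at 4.61 and 3.32 RPKM in cac1, 4.003 and 3.57 in cac2, 3.65 and 3.09 in cac3, and 1.37 and 1.69 in wild type. The mutants lay above both wild-type libraries. The mean change was 1.15 (SE 0.31, edgeR adjusted p = 0.0247), and the change in cac1 was 1.20 (SE 0.38, adjusted p = 0.0487). It was 1.20 in cac2 (adjusted p = 0.0587) and 1.05 in cac3 (adjusted p = 0.102). The pooled ratio of 112 mutant to 18 wild-type reads, at 2.18, had an exact 95% counting interval of 1.32 to 3.81. The mean change lost its call with DESeq2 (adjusted p = 0.186) and without cac3 replicate 1 (0.0582), wild-type replicate 1 (0.0762) or wild-type replicate 2 (0.269), and the call in cac1 was lost in each of the 8 fits that left out 1 library.

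Transcription of the other strand was next examined, since 7 of the 10 genes are overlapped on it by an annotated noncoding transcript and MDH1 has one beside its start. These 8 features were cryptic unstable transcripts (CUTs), which the nuclear exosome degrades, or stable unannotated transcripts (SUTs). In the mean of the mutants 4 of the 8 rose and 1 fell (all features 11.9% and 8.86%). Counts on the 2 strands were separate: over nearly the same span, wild-type replicate 1 had 3 reads on FBP1 and 98 on its antisense SUT281.

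SUT822, which covers 67.8% of CIT3 on the other strand, rose with CIT3. Its level was 34.6 and 30.6 RPKM in cac1, 27.7 and 32.3 in cac2, 23.96 and 23.3 in cac3, and 11.7 and 16.3 in wild type. The change was 1.09 in cac1 (SE 0.17, edgeR adjusted p = 0.00196), 1.01 in cac2 (SE 0.17, adjusted p = 0.00365) and 0.65 in cac3 (SE 0.16, adjusted p = 0.0411). The log2 ratio of CIT3 over SUT822 differed between mutants and wild type by 0.28 (exact p = 0.179), and the antisense level was the higher of the 2 in all 8 libraries.

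CUT043, which overlaps 236 bp of the CIT2 3′ end, averaged 27.2 ± 1.06 RPKM in cac1, 24.05 ± 3.74 in cac2, 21.7 ± 2.51 in cac3 and 13.3 ± 1.18 in wild type (SD, n = 2 each), with a mean change of 0.82 (SE 0.18, edgeR adjusted p = 0.0105). SUT337, which overlaps 52 bp of the CIT1 3′ end, averaged 41.6 ± 4.64 RPKM in cac1, 43.1 ± 8.18 in cac2, 41.3 ± 6.64 in cac3 and 23.8 ± 0.603 in wild type, with a mean change of 0.81 (SE 0.22, adjusted p = 0.0253). For both, all mutant libraries exceeded both wild-type libraries, and at CIT1 the sense level overlapped wild type.

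SUT093, which covers all of ICL1 on the other strand, differed between the mutants. It had 58.3 and 52.6 RPKM in cac1, 58.7 and 53.9 in cac2, 38.8 and 41.0 in cac3, and 41.7 and 43.97 in wild type. It rose in cac1 (0.36, SE 0.08, edgeR adjusted p = 0.013) and cac2 (0.39, SE 0.08, adjusted p = 0.0113), and its change in cac3 was -0.11 (SE 0.08, adjusted p = 0.471). The difference itself passed, at 0.47 between cac1 and cac3 (SE 0.08, adjusted p = 0.0248) and 0.49 between cac2 and cac3 (SE 0.08, adjusted p = 0.0201). The sense gene ICL1 showed no such difference, with -0.00 between cac1 and cac3 and -0.02 between cac2 and cac3 (SE 0.11 each). The mean change of SUT093 over the mutants was 0.21 (SE 0.07, adjusted p = 0.0482).

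CUT811, which overlaps 388 bp of the MLS1 3′ end, was the 1 antisense feature that fell. It averaged 124 ± 1.12 RPKM in cac1, 111 ± 4.20 in cac2, 128 ± 27.5 in cac3 and 175 ± 3.72 in wild type (SD, n = 2 each), a mean change of -0.53 (SE 0.11, edgeR adjusted p = 0.0081). Its level exceeded that of MLS1 in every library. The log2 ratio of MLS1 over CUT811 averaged -4.16 ± 0.11 in cac1, -3.70 ± 0.25 in cac2, -4.12 ± 0.35 in cac3 and -5.42 ± 0.75 in wild type, a difference of 1.42 (exact p = 0.0357, adjusted over 8 pairs 0.0714).

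SUT281, which covers 93.6% of FBP1, averaged 39.9 ± 0.720 RPKM in cac1, 38.2 ± 3.64 in cac2, 38.2 ± 2.63 in cac3 and 38.9 ± 3.74 in wild type (SD, n = 2 each), with a mean change of 0.03 (SE 0.10, edgeR adjusted p = 0.859). The ratio of FBP1 to SUT281 differed by 0.90 on the log2 scale (exact p = 0.0357, adjusted 0.0714). SUT044, which covers all of MDH3, had a mean change of 0.23 (SE 0.16, adjusted p = 0.327). SUT668, whose 5′ end lies 92 bp from that of MDH1, had a mean change of 0.44 (SE 0.36, adjusted p = 0.419) and rose in cac1 (1.29, SE 0.41, adjusted p = 0.0482), beside 0.38 in cac2 (adjusted p = 0.636) and -0.34 in cac3 (0.713). Its difference between cac1 and cac3 was 1.63 (SE 0.38, adjusted p = 0.0696) and did not pass.

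**Figure D4:**
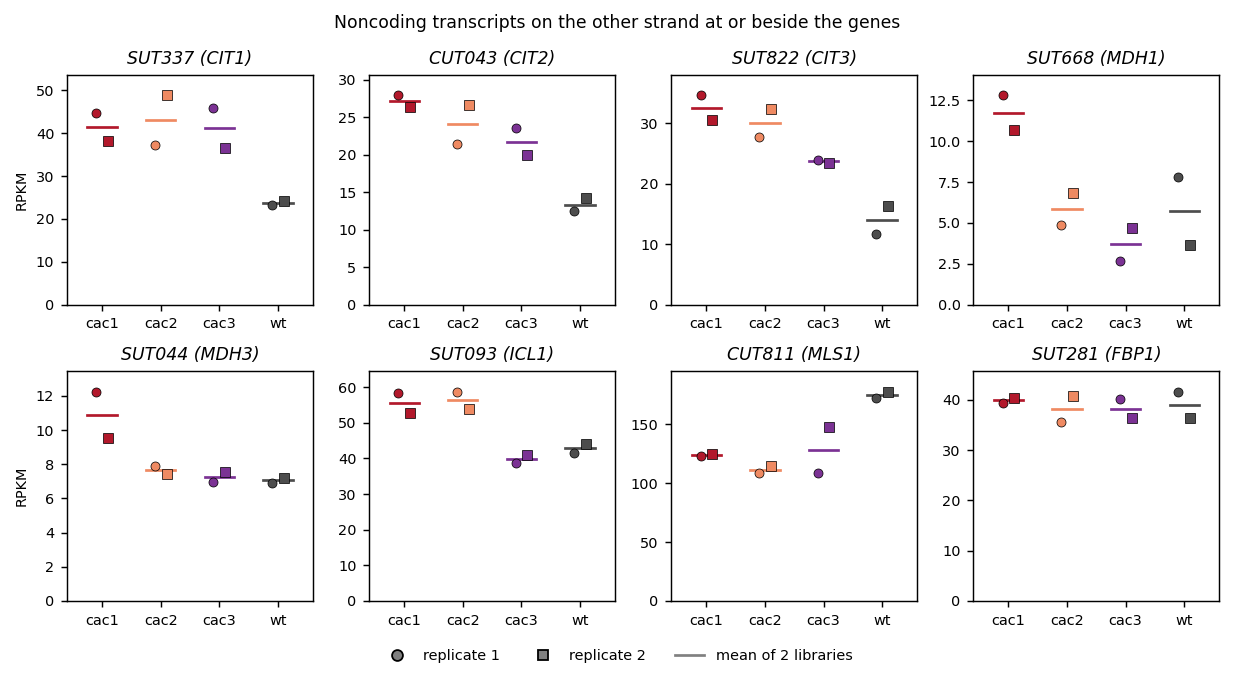
Level in RPKM, on a linear axis from 0 with a scale of its own for each panel, of each noncoding transcript on the strand opposite to 8 of the genes, in every library, with circles for replicate 1, squares for replicate 2 and a bar at the mean of 2. SUT337, CUT043 and SUT822 are higher and CUT811 is lower in all mutant libraries than in wild type, and SUT093 is higher in cac1 and cac2 but not in cac3.

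Reads in the windows for divergent transcription were few. The deposited count covers a window at each 5′ end, at most 600 bp wide, on what was inferred to be the opposite strand, and the 10 windows held between 1 and 88 reads per library. As inferred, a window reaches 100 bp into its gene. Most of the 116 bp at MDH1 thus lay within MDH1 on the other strand, not upstream of its start. None of the 10 windows was called by edgeR in cac2, in cac3 or in the mean of the mutants, where 18.3%, 6.04% and 22.5% of all windows were called. DESeq2 called none in any comparison, beside 353 of all 5494 windows higher and 64 lower in the mean. By edgeR, 1 of the 10 had an unadjusted p below 0.05 in cac2, and 0 in cac3 and in the mean. The window at MDH1, 116 bp wide, rose in cac1 (2.01, SE 0.55, adjusted p = 0.0219; 15% of all windows rose there). It held 12 and 33 reads in cac1 and 6 and 8 in wild type, or 51.6 and 59.3 RPKM in cac1 against 28.1 and 9.28 in wild type. The call was lost with DESeq2 (adjusted p = 0.162), without cac1 replicate 1 (0.0509) or replicate 2 (0.134), and without wild-type replicate 2, where the change was 1.00 (0.43).

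The balance between window and gene reads was listed per library without a test. On the log2 scale of window reads over feature reads, each with 1 read added, ACO1 lay between -7.92 and -7.03 in the mutant libraries and at -8.45 and -7.94 in wild type, without overlap. MDH2 lay between -7.20 and -6.51 in the mutant libraries and at -7.97 and -7.58 in wild type, so the groups did not overlap, while the MDH2 window itself differed by 0.03 (SE 0.35, edgeR adjusted p = 0.995) in the mean of the mutants. At FBP1 the window held more reads than the gene in all 8 libraries, with values from 0.87 to 1.58 in the mutants and 2.70 and 1.86 in wild type. CIT3 lay between -3.41 and -2.67 in the mutant libraries and at -2.66 and -2.32 in wild type. With the added read the mutants were thus higher in ACO1 and MDH2 and lower in CIT3 and FBP1, and the groups of the other 6 genes overlapped. Without that read CIT3 and ACO1 overlap too. CIT3 had 2 window and 18 gene reads in wild-type replicate 1, and 19 and 126 in cac3 replicate 1. ACO1 had 9 and 2426 in cac3 replicate 2, and 10 and 2695 in wild-type replicate 2. The share of all windows without overlap was not computed. The FBP1 window shares 264 bp with SUT281, and the windows of MDH3, ICL1 and CIT3 share 516, 296 and 80 bp with SUT044, SUT093 and SUT822.

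**Figure D5:**
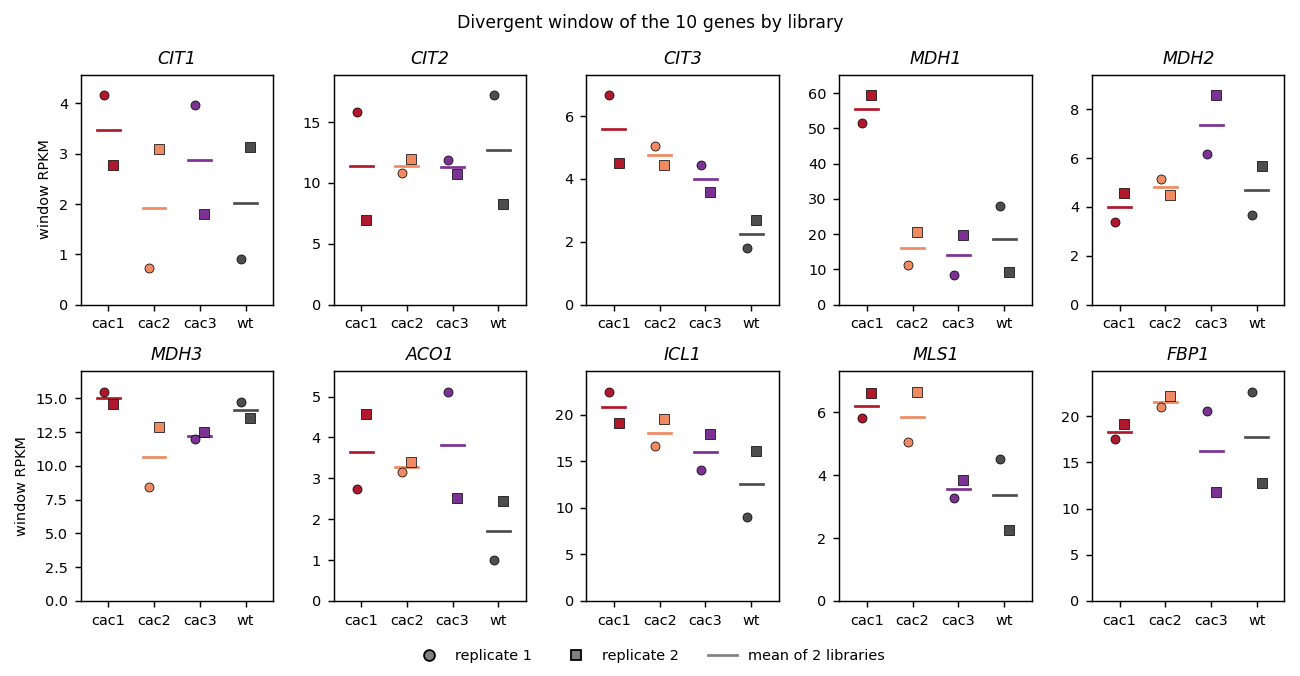
Level in RPKM, on a linear axis from 0 with a scale of its own for each panel, of the divergent window of each of the 10 genes in every library, with circles for replicate 1, squares for replicate 2 and a bar at the mean of 2. The windows of CIT3 and ACO1 are higher in all mutant libraries than in wild type without passing the test, and the MDH1 window is highest in cac1.

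Related genes were counted in 4 lists. Of 17 features of other citric acid cycle enzymes, 4 rose in the mean of the mutants by edgeR (11.9% of all features), with a median change of 0.08. These were IDH1 (0.34, SE 0.06, edgeR adjusted p = 0.00452) and IDH2 (0.23, SE 0.06, adjusted p = 0.0264), the subunits of mitochondrial isocitrate dehydrogenase, LSC1 (0.30, SE 0.07, adjusted p = 0.00973), a subunit of succinyl-CoA ligase, and SDH1 (0.41, SE 0.10, adjusted p = 0.0183), the flavoprotein of succinate dehydrogenase. In cac1 4 of the 17 rose (10.8% of all features) and in cac2 2 did (9.57%). In cac3 none was called by edgeR (all features 3.7% higher and 2.38% lower) or by DESeq2 (126 and 75 of all 7271 features). There 5 higher and 1 lower had an unadjusted p below 0.05 by edgeR. In the mean of the mutants DESeq2 called 2 of the 17 higher, beside 406 of all 7271 features higher and 337 lower.

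Of 16 features of other glyoxylate cycle, gluconeogenesis and carrier genes, 7 rose and 2 fell, beside 11.9% and 8.86% of all features, with a median change of 0.31. Of the 7, 5 had a mean level below 20 RPKM (both PCK1 features, CRC1, SFC1 and 1 of the ICL2 features), the class in which 43.9% of ORF-Ts rose. CRC1, the mitochondrial carnitine carrier, averaged 10.04 RPKM over the 6 mutant libraries and 2.32 in wild type (change 2.01, SE 0.22, edgeR adjusted p = 0.000228). Both features named PCK1, for the first committed enzyme of gluconeogenesis, rose, by 2.04 (SE 0.62, adjusted p = 0.0392) and 0.83 (SE 0.16, adjusted p = 0.00494). SFC1, the mitochondrial succinate-fumarate carrier, rose by 1.91 (SE 0.44, adjusted p = 0.0124), and both features named ICL2, for a mitochondrial methylisocitrate lyase, by 1.497 and 0.65. OAC1, the mitochondrial oxaloacetate carrier, fell by 0.35 (SE 0.05, adjusted p = 0.000623) and ACS2, an acetyl-CoA synthetase, fell by 0.28 (SE 0.05, adjusted p = 0.00367). In cac1 6 of the 16 rose and 2 fell (all features 10.8% and 8.38%). In cac2 4 rose and 2 fell (all features 9.57% and 5.94%), and in cac3 1 rose and 0 fell (all features 3.7% and 2.38%). DESeq2 called 4 higher and 2 lower in the mean of the mutants, beside 406 and 337 of all 7271 features.

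Of 12 carbon-source and retrograde regulators tested, 2 rose and 1 fell, with a median of -0.04, and these shares lie near the 11.9% and 8.86% of all features. SIP4 and CAT8, activators of gluconeogenic genes, rose by 2.13 (SE 0.23, edgeR adjusted p = 0.000224) and 1.16 (SE 0.18, adjusted p = 0.00164). RTG3, a factor of the retrograde response, fell by 0.35 (SE 0.06, adjusted p = 0.0019). Each single mutant gave the same counts of 2 and 1 by edgeR. Of all features, 10.8% rose and 8.38% fell for cac1, and 9.57% and 5.94% for cac2. For cac3 these shares were only 3.7% and 2.38%, so 2 and 1 of 12 do not lie near them. DESeq2 called 2 higher and 0 lower per single mutant. Of all 7271 features it called 402 and 319 for cac1, 321 and 250 for cac2, 126 and 75 for cac3. SIP4 averaged 8.59 RPKM over the mutants and 1.88 in wild type, and CAT8 5.62 over the mutants and 2.81 in wild type, both in the low class where rises were frequent. Of 8 genes of the GID ubiquitin ligase, which marks Fbp1, Icl1 and Mdh2 for degradation when glucose returns, GID7 rose by 0.47 (SE 0.08, adjusted p = 0.00295) and VID24 fell by 0.22 (SE 0.07, adjusted p = 0.0409), with a median of 0.01, again near the shares of all features. DESeq2 called 1 of the 8 higher and 0 lower in the mean of the mutants, beside 406 and 337 of all 7271 features. RTG1 was not analysed here.

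The ORF-Ts whose levels followed those of the called genes most closely were ranked by Pearson's correlation of log2(RPKM + 1) over the 8 libraries among 5121 ORF-Ts. The points share libraries and the difference between mutants and wild type, and the values are a description. Nearest to MDH2 were FUI1, a uridine permease (0.99), RIB4, of riboflavin synthesis (0.99), and MMF1 (0.99). Nearest to CIT2 were IDH1 (0.99), SIR2 (0.98) and LIF1 (0.98). Nearest to CIT3 were YJL045W, FMP45 and GFD2 (0.99 each), nearest to MLS1 YGR251W (0.97), DPB2 (0.95) and the feature shared by DIA3 and YDL022C-A (0.94), and nearest to FBP1 GAL4, HEF3 and YMR118C (0.99 each).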

How the data were processed

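NET-seq reads of 8 libraries had been counted by the authors. Per the file headers, the deposited count is that of reads over the span of a feature, in whole numbers. A second deposited value, an estimated count of reads in a window at the 5′ end, has 0.5 entered where it was empty, which was set to 0. The deposited RPKM was used to read window widths. Window position and strand were inferred. Per the labels, a published NET-seq protocol was followed. The sources used here do not state the aligner, build, read filters or how reads shared by similar genes were treated, so levels of close paralogues are uncertain.

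Features with at least 1 RPKM in at least 2 libraries were tested: 7271 of 7272, with all 10 genes and, in a fit of their own, 5494 windows. Libraries were scaled by TMM over ORF-Ts (factors 0.964 to 1.02). All 8 entered 1 edgeR 4.0.16 quasi-likelihood fit (R 4.3.3) with a coefficient per group, Benjamini-Hochberg adjustment over all features and a threshold of 0.05. The biological coefficient of variation was 8.13% for features and 13.3% for windows. The code was tested on simulated data. Isoenzyme and strand ratios used a pseudocount of 1 RPKM and exact permutation (scipy 1.17.1). Alternatives were DESeq2 1.42.0, no scaling, no filter, ORF-Ts alone, a replicate block, leaving out each library, and for ratios a pseudocount of 0.1.

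The genes and lists were chosen with earlier results of these data known. All 10 genes are named, with up to 4 called genes each way per related list, the 3 nearest ORF-Ts of at least 5 RPKM per called gene, and noncoding features on the other strand. The class below 20 RPKM, the rank of MDH2 and the neighbouring genes were chosen after the values were seen.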

Additional observations from a re-analysis of the deposited data

Results flagged for a closer look

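MDH2 is listed here because its change from wild type differed between mutants by a direct test. It was lower in cac1 than in cac3 by a log2 difference of -0.52 (edgeR adjusted p = 0.00122), with 265 and 261 RPKM in cac1 and 378 and 375 in cac3. It was lower in cac2 than in cac3 by -0.67 (adjusted p = 0.000141), with 229 and 243 RPKM in cac2. Both calls held in each fit that left out 1 library, with an adjusted p of at most 0.0283 and 0.00429.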

How the results depend on the processing

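Of 1390 values of single genes or windows under alternative settings, 1339 kept their direction and their side of the threshold, or had no call in either, 41 lost a call, 10 gained one and none with a call reversed. Most of the 1390 had no call in the main fit and so could lose none. The sign differed for 96 values with no call in either. In cac1, DESeq2 called 2 of the 10 genes (edgeR 4) and 0 windows (edgeR 1). Over all features in cac1 DESeq2 called 402 higher and 319 lower, against 786 and 609 by edgeR. Over all windows there it called 226 higher and 63 lower, against 826 and 244. Leaving out 1 library at a time, the number called ran from 2 to 3 in cac1, 2 to 4 in cac2, 0 to 3 in cac3 and 2 to 6 in the mean of the mutants, and windows called in cac1 from 0 to 1. Without wild-type replicate 2, the deepest library, the counts were 2, 2, 0 and 2, where the lone wild-type library is assumed to vary like the others, and calls over all features fell likewise, in the mean to 112 higher and 90 lower, against 865 and 644 with all libraries. The count in cac1 was also smaller without any 1 of the cac1 or cac3 libraries. The same held for the mean without wild-type replicate 1, and for cac3 without cac3 replicate 2. In each of these fits the calls over all features were fewer too, both higher and lower. The isoenzyme differences ran from 0.28 to 0.32 for CIT2 over CIT1, 1.18 to 1.37 for CIT3 over CIT1, 0.86 to 1.08 for CIT3 over CIT2, 0.74 to 0.89 for MDH3 over MDH2, -1.15 to -0.71 for MDH2 over MDH1 and, with a change of sign, -0.36 to 0.10 for MDH3 over MDH1. Without a wild-type library the smallest exact permutation p is 0.143, and MDH3 over MDH2 had an exact p of 0.0952 without cac1 replicate 1 or either cac2 library. Samples of the same replicate number deviated together (correlations 0.24 to 0.44 between groups). The labels name no shared batch, so whether these samples shared more than a number is not known. With a replicate block 5 genes were called in cac1, 4 in cac2, 4 in cac3, 6 in the mean, and 2 in each of cac1 against cac3 and cac2 against cac3, where CIT3 was added (0.50, adjusted p = 0.0382; 0.58, adjusted p = 0.0372). CIT2 was added in cac1 (0.22, adjusted p = 0.0272) and cac3 (0.27, adjusted p = 0.00897), and ICL1 in the mean (0.25, adjusted p = 0.0249). Over all features the block gave 1181 higher and 929 lower in cac1, against 786 and 609 without it, and 601 higher and 446 lower in cac3, against 269 and 173. In cac2 it gave 1067 and 763, against 696 and 432, and in the mean 1217 and 1023, against 865 and 644. For cac1 against cac3 it gave 346 higher and 279 lower, against 49 and 50. For cac2 against cac3 it gave 127 and 72, against 25 and 19. The block gave the ratios the same differences. The cause of these changes was not tested. FBP1 rests on 3 to 31 reads per library and the windows on 1 to 88.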

Other observations

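The genes next to the 10 members were examined after the results were known, 2 for each gene and 20 in all. In the mean of the mutants 5 rose and 1 fell by the edgeR test, beside 11.9% and 8.86% of all features. SRX1, the sulfiredoxin gene upstream of MDH1 on the same strand, averaged 19.6 ± 5.49 RPKM over the 6 mutant libraries and 7.12 ± 1.72 over the 2 wild-type libraries (SD), a change of 1.31 (SE 0.24, adjusted p = 0.00465). YCP4, downstream of CIT2 on the same strand, rose by 0.29 (SE 0.06, adjusted p = 0.0105), beside 0.30 at CIT2. PDH1, a gene of propionate metabolism downstream of CIT3, differed by 0.53 (SE 0.18, adjusted p = 0.0612). ATO2 beside CIT1 rose by 0.62, VAM6 beside MDH3 by 0.34 and PSY3 beside FBP1 by 0.40, and DCP2 beside MLS1 fell by 0.22. Beside MDH2, TRM13 differed by -0.07 (SE 0.07, adjusted p = 0.554) and RPL25 by -0.07 (SE 0.04, adjusted p = 0.203), neither of which passed.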
